A study of Homo sapiens with 112 samples.

Results

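The data described here are the RNA levels of 37 DNA damage repair genes, out of 58684 genes counted, in 2 human prostate cancer cell lines exposed to an androgen and to the antiandrogen darolutamide. The genes were taken by symbol from a list of repair genes and were kept where 4 or more libraries of a line held 10 reads or more. All 37 passed in both lines, among 19266 genes tested in VCaP and 18204 tested in LAPC4 cells. By role they comprise 12 genes of homologous recombination, 6 of DNA end processing and helicases, 6 of non-homologous end joining, 3 of single-strand break repair, 4 checkpoint kinases, 4 of the Fanconi anemia pathway and 2 of mismatch repair.

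Double-strand breaks in DNA are mended either by homologous recombination, which copies the intact sister chromatid and works mainly in S and G2 phase, or by non-homologous end joining, which ligates the broken ends at any phase of the cell cycle. The kinases ATM and ATR sense damage and stalled replication and signal through CHEK2 and CHEK1, and the Fanconi anemia proteins clear crosslinks that block replication forks. In prostate cancer, inherited or acquired loss of BRCA2, ATM and related genes is known for sensitizing tumors to inhibitors of PARP enzymes, and androgen signaling has been linked to repair gene expression.

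VCaP and LAPC4 are androgen-responsive lines, and VCaP cells carry a fusion of TMPRSS2 and ERG. Before treatment all cells were deprived of steroids for 2 days (charcoal-stripped serum at 10%), so the DMSO (vehicle) groups are hormone-starved cells as well. They were then given DMSO, 1 nM R1881 (a synthetic androgen), or 1 nM R1881 together with darolutamide at 500 nM, called the low dose here, or at 2 µM, the high dose, and no group received darolutamide without R1881. At 22 h the DMSO, R1881, low-dose and high-dose groups held 8, 9, 4 and 5 VCaP and 7, 10, 5 and 5 LAPC4 libraries, and at 8 h they held 10, 10, 4 and 5 VCaP and 10, 10, 5 and 5 LAPC4 libraries. BRCA1 lies at chr17:43044295-43170245, BRCA2 at chr13:32315086-32400268, BARD1 at chr2:214725646-214809683, LIG4 at chr13:108207439-108218368, ATM at chr11:108223044-108369102 and ATR at chr3:142449007-142578733 (GRCh38, GENCODE 44). Each line is a single cell culture model, so the replicates measure the spread between libraries of 1 line and not between patients.

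The 112 libraries held 12188455 to 25201678 counted reads (median 20144050.5). The members had between 13 reads (RAD51B) and 26020 reads (PRKDC) per library. Levels are given as CPM, read counts scaled by a library size adjusted with TMM factors. Among known androgen targets, mean CPM of FKBP5 went from 72.3 with DMSO to 3260 with R1881 and 193 with the high dose in VCaP cells, and from 124 to 320 and 126 in LAPC4 cells at 22 h. ERG, the label check for VCaP, had at least 1578 reads in every VCaP and at most 1 read in every LAPC4 library. Markers of fibroblasts, basal cells and leukocytes stayed low, with the highest group mean at 1.07 CPM for COL1A1, and PTPRC, the common leukocyte antigen, had at most 7 reads in any library.

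Without androgen, the repair genes spanned a wide range of levels. Per kilobase of transcript, XRCC6 and XRCC5, the Ku subunits that bind broken ends, had the highest levels in hormone-starved VCaP cells at 22 h, with means of 186 and 110 CPM per kb. PARP1, which marks strand breaks with poly(ADP-ribose), followed at 60.1 CPM per kb, and PRKDC, the catalytic subunit of the DNA-dependent protein kinase, at 56.4 CPM per kb. BRCA2, a mediator of strand exchange in recombination, and FANCA, a subunit of the Fanconi core complex, were lowest, both at 1.06 CPM per kb. LAPC4 cells likewise had XRCC6 (283) and XRCC5 (148 CPM per kb) on top, with RAD51D, which acts in homologous recombination, lowest at 0.955 CPM per kb. Lengths are those of 1 canonical transcript per gene, 9966 bases for RAD51D. By CPM alone RAD54B (4.64) lay below RAD51D (9.52) in these LAPC4 cells.

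Between the hormone-starved lines at 22 h, 34 of 37 members differed, 15 higher and 19 lower in VCaP, against 85.5% of all 16578 genes tested in both lines. Differences are given as log2 fold changes with their standard error (SE) from a quasi-likelihood fit in edgeR, and a gene was called when its p, adjusted over all genes tested, was under 0.05. The percentages of all genes called are given for comparison, and no list was tested as a set. PRKDC was 4.38-fold higher in VCaP cells (log2 difference 2.13 ± 0.05 SE) and LIG4, the ligase of end joining, was 2.19-fold higher (1.13 ± 0.08). FANCA stood 1.64 ± 0.07 lower on the log2 scale, XRCC4, the partner of LIG4, 1.44 ± 0.09 lower, and BARD1, the obligate partner of BRCA1, 1.24 ± 0.05 lower. These differences come from a joint fit that scaled both lines together, whereas CPM was scaled within each line. Ratios of CPM between the lines therefore differ from them, with PRKDC at means of 758 CPM in VCaP and 213 CPM in LAPC4 cells. The size of each difference, and the direction of small ones, depends on this scaling. Cell line and culture cannot be told apart in these differences.

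In VCaP cells, 22 h of R1881 moved the members in both directions. Of 37 members, 16 rose and 14 fell, 7 did not pass the test, and the median log2 fold change was -0.01, against 77.4% called (37.4% higher and 40% lower) and a median of -0.03 over all genes. The members' share of calls (81.1%) was therefore close to that of all genes. Divided by the total counts alone, 11 members were higher and 19 lower. The largest shift of the median of all genes under that scaling, over all 24 comparisons, was 0.27 on the log2 scale. Every R1881 library lay above every DMSO library for 8 members and below for 11, against 23.4% and 23.3% of all genes. The DMSO and R1881 groups hold up to 10 numbered libraries and the darolutamide groups at most 5, so control numbers 1 to 5 and those from 6 upward were treated as possible batches, although no label names a batch. Library numbers 1 to 5 of the DMSO and R1881 groups taken alone gave 29 calls, and numbers from 6 upward gave 29. Of 6 end joining genes 4 rose and 1 fell, and homologous recombination split into 5 higher and 6 lower of 12. In these bulk samples, a change in the share of cells in a phase of the cell cycle and a change in RNA per cell cannot be told apart.

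**Figure D1:**
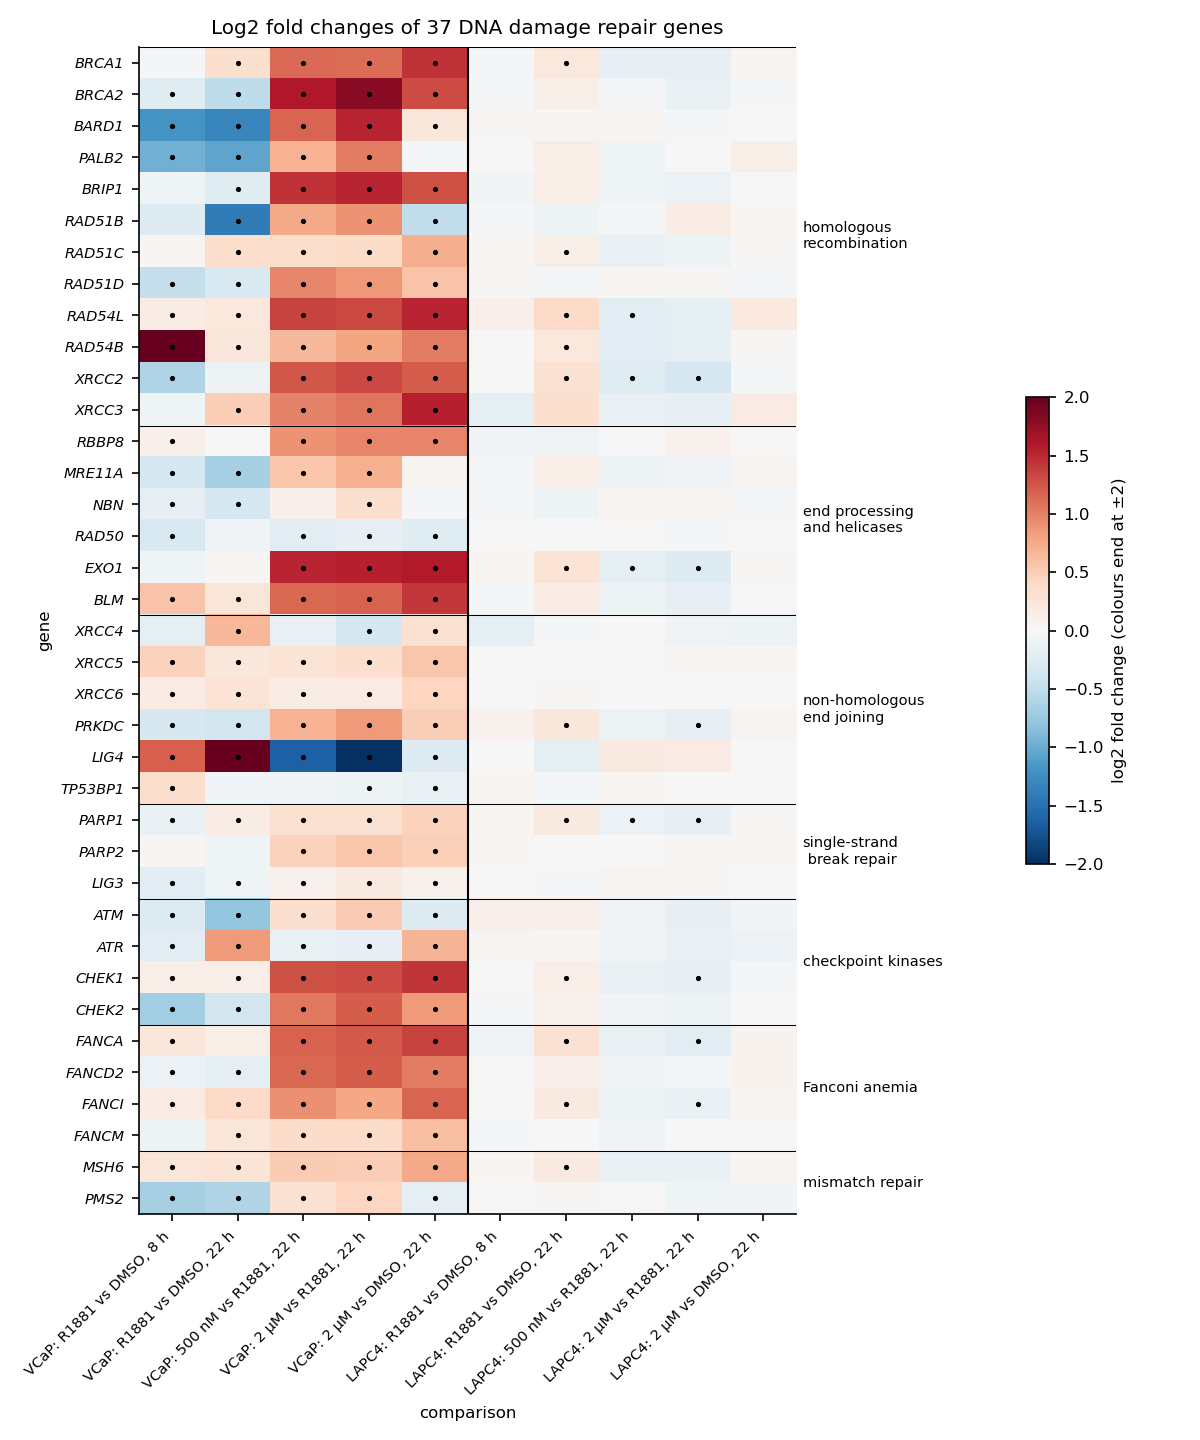
Log2 fold changes of the 37 repair genes (rows, grouped by role) in 10 comparisons (columns, VCaP left and LAPC4 right of the line), with a dot where the adjusted p was under 0.05. The VCaP columns with darolutamide at 22 h are red for most genes and blue for LIG4, while the LAPC4 columns stay pale, within -0.33 and 0.38.

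LIG4 rose most among the members. Its CPM in VCaP cells at 22 h ranged from 8.34 to 10.6 (median 9.7) with DMSO and from 41 to 54.8 (median 47.8) with R1881. The low dose gave 15.4, 14.5, 14.4 and 16.5 CPM, and the high dose 8.82, 7.99, 7.19, 8.8 and 7.73 CPM. The R1881 libraries lay far above all others, the low-dose libraries lay between R1881 and DMSO, and the high-dose libraries overlapped with DMSO at its lower end. The change with R1881 was 4.87-fold (log2 2.28 ± 0.06, edgeR adjusted p = 4.35e-38), and with the high dose LIG4 was at 0.172 of its R1881 level (log2 -2.54 ± 0.07, adjusted p = 8.8e-36).

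ATR, the kinase that answers to stalled replication forks, also rose but kept its level with the antagonist. It had 36 to 43.9 CPM (median 39.6) with DMSO and 65.9 to 78.5 CPM (median 72.3) with R1881, an increase of 0.84 ± 0.05 on the log2 scale (edgeR adjusted p = 5.49e-24). The low-dose libraries had 67.6, 66.5, 66.4 and 62.3 CPM and the high-dose libraries 59.4, 64.5, 59.7, 67.8 and 69.6 CPM. All of them lay above every DMSO library and overlapped with the R1881 libraries at their lower end. Against R1881 the high dose lowered ATR by 0.17 ± 0.05 on the log2 scale, a call that was lost with scaling by total counts (-0.08), and against DMSO ATR remained 1.6-fold higher (0.68 ± 0.05, adjusted p = 6.67e-17). XRCC4 had 2.27 to 4.01 CPM with DMSO and 4.26 to 5.97 with R1881 (log2 0.66 ± 0.11, adjusted p = 4.24e-07). XRCC3, which acts in homologous recombination, rose from a mean of 5.25 ± 0.958 to 7.31 ± 1.27 CPM (SD, n = 8 and 9, log2 0.49 ± 0.13), with overlapping libraries.

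The genes that fell most belong to homologous recombination and damage sensing. BARD1 had 36.7 to 46.1 CPM (median 41.5) with DMSO and 14.8 to 19.2 CPM (median 16.2) with R1881. The low dose gave 40.3, 36.6, 37.1 and 36.3 CPM and the high dose 46.3, 47.1, 45.5, 50.3 and 51.8 CPM. R1881 alone kept BARD1 below all other libraries, the low-dose values reached the lower part of the DMSO range, and 4 of the 5 high-dose libraries exceeded the highest DMSO value. The log2 fold change was -1.31 ± 0.06 with R1881 (edgeR adjusted p = 6e-29) and 1.53 ± 0.06 for the high dose against R1881 (8.72e-30). PALB2, which bridges BRCA1 and BRCA2, went from a mean of 10.5 ± 0.809 to 5.06 ± 0.539 CPM with R1881 and to 8.15 ± 0.412 and 10.2 ± 0.719 CPM with the low and high dose (SD, n = 8, 9, 4 and 5). Its high-dose level differed from DMSO by -0.03 ± 0.07 on the log2 scale, which did not pass the test.

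ATM and RAD51B fell with R1881 and came back in part. ATM had 103 to 131 CPM (median 112) with DMSO and 62.6 to 77.6 CPM (median 65.8) with R1881, a fold change of 0.587 (log2 -0.77 ± 0.05, edgeR adjusted p = 1.95e-20). With the low dose it had 84.7, 86.6, 82.1 and 79.6 CPM and with the high dose 89.4, 95, 88.5, 97.6 and 107 CPM. Every darolutamide library lay above every R1881 library, and only 1 high-dose library reached into the DMSO range, so that the high dose stayed below DMSO by the test (-0.26 ± 0.06, adjusted p = 0.000168). RAD51B, which acts in homologous recombination, had the fewest reads of all members, and its means were 2.76 ± 0.359, 1.05 ± 0.193, 1.78 ± 0.389 and 1.95 ± 0.249 CPM in the same order (SD, n = 8, 9, 4 and 5). The fall with R1881 was -1.39 ± 0.14 and the high dose remained -0.50 ± 0.15 from DMSO on the log2 scale. MRE11A (log2 -0.67 ± 0.05) and NBN (-0.35 ± 0.04), both of the complex that resects broken ends, and PMS2 (-0.61 ± 0.04) of mismatch repair fell as well, while RAD50, the third subunit of that complex, had -0.07 ± 0.04 and did not pass.

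**Figure D2:**
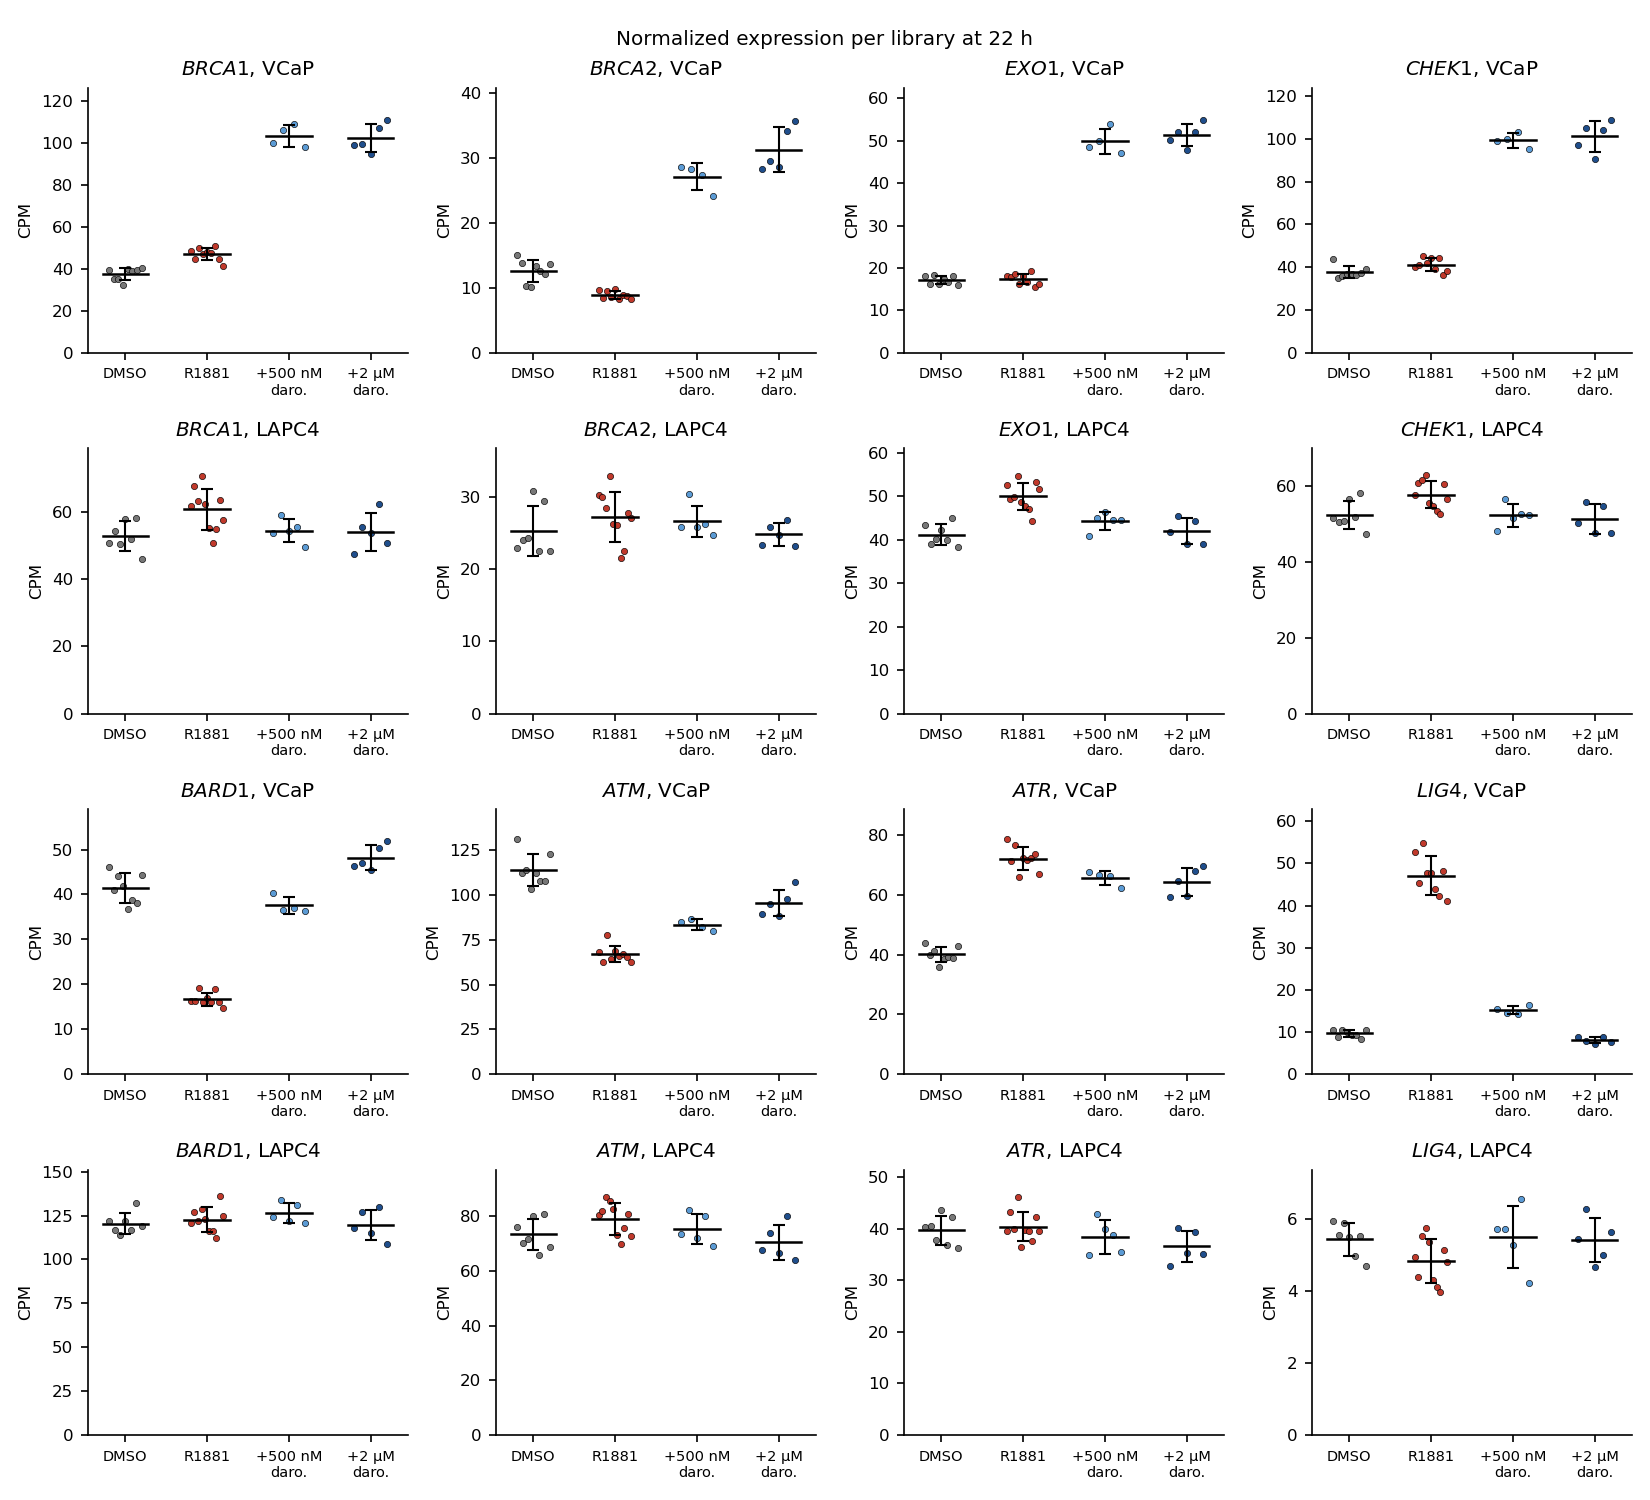
CPM of 8 repair genes at 22 h in every library (points), with group means (long bars) and SD (error bars), for DMSO, R1881 and R1881 with 500 nM or 2 µM darolutamide, each gene shown for VCaP above and for LAPC4 below. In VCaP cells BRCA1, BRCA2, EXO1 and CHEK1 are highest with darolutamide, whereas LIG4 is highest with R1881 alone.

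Adding darolutamide to R1881 raised most repair genes in VCaP cells at 22 h, and most of them beyond the level of cells that had received no androgen. At the high dose 32 members were higher and 5 lower than with R1881, so all 37 passed the test, against 66.9% of all genes (36.1% higher and 30.8% lower), and their median log2 fold change was 0.80 against 0.06 for all genes. A rise of more than 1 on the log2 scale was seen in 14 members against 9.34% of all genes. The 5 lower genes were LIG4, XRCC4, TP53BP1, ATR and RAD50. At the low dose 31 were higher and 3 lower against 53% of all genes called (26.7% higher and 26.4% lower), with 12 above 1 against 5.32%. Relative to DMSO, 28 were higher and 6 lower with the high dose, against 59% of all genes called (30.5% higher and 28.5% lower), with 13 above 1 against 2.96%. The same restriction to control numbers 1 to 5 gave 36, 33 and 33 calls, and that to numbers from 6 upward gave 37, 32 and 32.

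In 24 of 37 members (64.9%), every high-dose library had a higher value than every DMSO and every R1881 library, whereas this held for 6.28% of all genes tested. With the low dose the same was seen in 24 members against 5.51% of all genes. No member had all high-dose libraries below all DMSO and R1881 libraries, against 2.82% of all genes. The 24 genes at the high dose included 9 of 12 homologous recombination genes, 4 of 4 Fanconi anemia genes, 3 of 6 end processing genes, 3 of 6 end joining genes, PARP1 and PARP2, MSH6, and the kinases CHEK1 and CHEK2.

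BRCA1, the ubiquitin ligase that directs breaks toward recombination, had 32.1 to 40.3 CPM (median 39.2) with DMSO and 41.2 to 50.7 CPM (median 47.6) with R1881. With the low dose it had 99.8, 106, 109 and 98.3 CPM and with the high dose 99, 99.7, 94.7, 107 and 111 CPM. The 3 levels did not overlap, and both doses lay at about the same height. The high dose was 2.18-fold above R1881 (log2 1.12 ± 0.05, edgeR adjusted p = 4.93e-26) and 2.71-fold above DMSO (1.44 ± 0.06, adjusted p = 8.6e-30). BRCA2 had 10.2 to 15 CPM (median 13) with DMSO, fell to 8.3 to 9.84 CPM (median 8.79) with R1881, and reached 28.7, 28.4, 27.4 and 24.1 CPM with the low and 28.3, 29.5, 28.7, 34.2 and 35.8 CPM with the high dose. It thus moved downward with androgen, without overlap, and to 3.5-fold of the R1881 level with the high dose (log2 1.81 ± 0.07, adjusted p = 4.01e-29), the largest rise among the members.

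CHEK1, the effector kinase of ATR, had 34.9 to 43.6 CPM with DMSO and 36.4 to 45.1 CPM with R1881. The low dose gave 98.9, 100, 103 and 95 CPM and the high dose 97.2, 105, 90.7, 104 and 109 CPM. DMSO and R1881 overlapped almost wholly (log2 0.12 ± 0.05, edgeR adjusted p = 0.0254, lost without replicate 3 of R1881 with a log2 value of 0.11, with control numbers from 6 upward with 0.05, and with scaling by total counts with 0.01), whereas darolutamide more than doubled the level, by 2.46-fold against R1881 (log2 1.30 ± 0.06, adjusted p = 2.99e-28). EXO1, the exonuclease that extends resected ends, showed means of 17.1 ± 0.956, 17.4 ± 1.23, 49.9 ± 2.94 and 51.4 ± 2.66 CPM with DMSO, R1881, low and high dose (SD, n = 8, 9, 4 and 5), a log2 difference of 1.56 ± 0.05 between high dose and R1881. RAD54L, a motor protein of strand invasion, followed the same course with 10.5 ± 0.679, 12.2 ± 1.39, 30.9 ± 1.52 and 30.4 ± 1.31 CPM, and so did XRCC2, which acts in homologous recombination, with 16.3 ± 1.68, 15.2 ± 1.28, 36 ± 1.08 and 38 ± 4.16 CPM.

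The Fanconi anemia genes rose together with darolutamide, 4 of 4 at the high and low dose against R1881 (36.1% and 26.7% of all genes were higher) and 4 of 4 at the high dose against DMSO (30.5%). FANCA went from 6.28 ± 0.61 CPM with R1881 to 14.6 ± 1.38 CPM with the high dose (log2 1.22 ± 0.09). FANCD2 and FANCI, the pair that is ubiquitinated at stalled forks, rose by 1.21 ± 0.05 and 0.78 ± 0.04 on the log2 scale, and FANCM, the translocase that recruits the core complex, by 0.37 ± 0.07. The mismatch repair gene MSH6 rose by 0.48 ± 0.05 against R1881 and was 0.75 ± 0.05 above DMSO, while PMS2 rose by 0.43 ± 0.05 and stayed 0.18 ± 0.05 below DMSO. The remaining members are given by their log2 fold change with the high dose against R1881. BRIP1, the helicase partner of BRCA1, rose by 1.53 ± 0.06, and the recombination genes RAD51D and RAD51C by 0.87 ± 0.06 and 0.37 ± 0.06. Among the end processing genes, BLM, a helicase that dissolves joint molecules, rose by 1.17 ± 0.05, RBBP8 (CtIP), which starts resection, by 0.98 ± 0.06 and MRE11A by 0.72 ± 0.06, whereas RAD50 was 0.17 ± 0.05 lower. CHEK2, the effector kinase of ATM, rose by 1.22 ± 0.06, after a fall of 0.36 ± 0.06 with R1881. PARP2 rose by 0.55 ± 0.06, XRCC5 by 0.34 ± 0.04 and XRCC6 by 0.17 ± 0.03. PMS2 and CHEK2 have near-identical copies elsewhere in the genome, so their counts are uncertain.

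PRKDC of end joining had 711 to 810 CPM with DMSO and 552 to 659 CPM with R1881, and rose to 970, 975, 935 and 921 CPM with the low and 1040, 1030, 1050, 1070 and 1140 CPM with the high dose. The groups did not overlap, with R1881 lowest and the high dose highest. PARP1 had 232 to 255 CPM (median 237) with DMSO, 257 to 276 CPM (median 264) with R1881, 337, 326, 330 and 320 CPM with the low and 331, 332, 305, 336 and 337 CPM with the high dose. This was a rise of 0.31 ± 0.03 on the log2 scale for the high dose against R1881 (edgeR adjusted p = 2.42e-15), and both doses lay above all libraries without the antagonist. TP53BP1, which shields ends from resection, differed by -0.10 ± 0.04 and LIG3, the ligase of single-strand breaks, by 0.18 ± 0.03.

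Between 2 µM and 500 nM at 22 h, 6 of 37 members differed in VCaP cells, 5 higher and 1 lower with the high dose, against 20.2% of all genes, a share of calls near that of all genes, and 5 higher and 2 lower with scaling by total counts. LIG4 had the largest difference, -0.91 ± 0.09 on the log2 scale (edgeR adjusted p = 1.13e-12). BARD1 (0.36 ± 0.07), PALB2 (0.33 ± 0.08), NBN (0.23 ± 0.06), ATM (0.20 ± 0.07) and PRKDC (0.17 ± 0.05) were higher with the high dose. The calls for ATM and PRKDC were lost without the low-dose replicate 4, with values of 0.15 and 0.13. By contrast, BRCA1 (-0.01 ± 0.06), EXO1 (0.04 ± 0.06), CHEK1 (0.03 ± 0.07) and RAD54L (-0.03 ± 0.07) did not pass the test.

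Promoter sequence was examined for these genes because many of them moved together. RefSeq windows from 250 bases before to 50 bases after each transcription start (GRCh38.p14) were found for 32 of 37 members and for 27305 genes in all. In this paragraph all genes are these 27305, which include genes not tested in either line, while the members were all tested. An E2F site, searched on both strands as TTTCCCGC, TTTCGCGC, TTTGCCGC or TTTGGCGC, was present in 7 members (21.9%) and in 3.99% of all genes. The CHR element of cell cycle genes, TTTGAA, was present in 2 members (6.25%) against 18.2% of all genes, the CCAAT box in 18 members (56.2%) against 39.7%, and the androgen response element in 0 members against 0.48%. Such matches describe letters in a window and not binding. The 30 bases around the E2F match of each of the 7 genes are given 5′ to 3′ on the strand of the gene, with the match in capitals, at chr1:241848197-241848226 (EXO1), chr16:89816801-89816830 (FANCA), chr3:10026424-10026453 (FANCD2), chr2:47783137-47783166 (MSH6), chr7:6009131-6009160 (PMS2), chr7:152676102-152676131 (XRCC2) and chr22:41621315-41621344 (XRCC6), with FANCA, PMS2 and XRCC2 on the minus strand.
EXO1: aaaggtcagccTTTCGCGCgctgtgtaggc
FANCA: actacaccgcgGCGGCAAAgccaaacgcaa
FANCD2: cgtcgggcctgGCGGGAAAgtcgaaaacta
MSH6: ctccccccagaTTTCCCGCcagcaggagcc
PMS2: cgggaagtattTTTGCCGCcccgcccggaa
XRCC2: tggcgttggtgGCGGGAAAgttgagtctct
XRCC6: tgtccaagttggtcgcttccctGCGCCAAA

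These 7 genes rose with the high dose against R1881 by between 0.17 (XRCC6) and 1.56 (EXO1) on the log2 scale. In EXO1, FANCD2 and MSH6 the match lay within 4 bases of the start, and in FANCA it began 172 bases before it. BRCA1, BRCA2 and CHEK1 had no match to these words in their windows and rose by 1.12 to 1.81.

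At 8 h in VCaP cells, R1881 called 28 of 37 members, 12 higher and 16 lower, against 66.9% of all genes (32.8% higher and 34.1% lower). With scaling by total counts 6 members were higher and 23 lower. The share of calls was again near that of all genes. BARD1 (-1.19 ± 0.05 on the log2 scale) and PALB2 (-0.96 ± 0.06) had already fallen. High-dose darolutamide called 26 members against R1881, 20 higher and 6 lower (27 and 4 with scaling by total counts), with a median log2 fold change of 0.17. Of all genes 52.1% were called, 25.9% higher and 26.2% lower. The low dose called 20 members, 17 higher and 3 lower, against 30.6% of all genes (14.9% higher and 15.7% lower). BRCA1 rose by 0.26 ± 0.06 with the high dose at 8 h, compared with 1.12 at 22 h, although the difference between the times was not tested for darolutamide. The doses differed for 8 members at 8 h against 17.6% of all genes, 4 in each direction (6 higher and 3 lower with scaling by total counts), and the high dose differed from DMSO for 16 members against 27.5%. No member had every high-dose library above every DMSO and R1881 library at 8 h, against 0.644% of all genes. With the low dose this held for 2 members, BRCA1 and FANCD2 (5.41%), against 0.68% of all genes.

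RAD54B, a relative of RAD54L, changed early and briefly. At 8 h it had 4.36 to 6.34 CPM (median 5.07) with DMSO and 17.7 to 26.1 CPM (median 21.5) with R1881, a 4.06-fold rise (log2 2.02 ± 0.07, edgeR adjusted p = 7.76e-34). The low dose gave 12.5, 13.2, 13.2 and 13.1 CPM and the high dose 7.61, 7.2, 8.31, 9.54 and 7.9 CPM, so the groups did not overlap and were ordered DMSO, high dose, low dose, R1881. At 22 h the R1881 libraries had only 5.45 to 7.56 CPM, and the darolutamide groups, at 10.1 ± 0.812 (SD, n = 4) and 11.1 ± 0.924 CPM (SD, n = 5), lay above them. The R1881 effect was 1.79 ± 0.10 smaller at 22 h than at 8 h on the log2 scale (adjusted p = 2.78e-22).

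The effect of R1881 differed between 22 h and 8 h for 24 of 37 members in VCaP cells, 15 upward and 9 downward. Of all genes 60.4% differed, 28.1% upward and 32.3% downward. LIG4 had risen 2.3-fold by 8 h (10.4 ± 1.04 to 23.9 ± 1.75 CPM, SD, n = 10 and 10), and its effect grew by 1.08 ± 0.08 on the log2 scale by 22 h. ATR was 0.23 ± 0.04 lower with R1881 at 8 h and higher at 22 h, a difference of 1.08 ± 0.06 (adjusted p = 3.22e-22). The fall of RAD51B at 8 h, -0.26 ± 0.13, did not pass the test, and its effect at 22 h was 1.13 ± 0.19 lower. Mean CPM of RAD51B was 1.51 at 8 h and 2.76 at 22 h with DMSO, and 1.27 and 1.05 with R1881. Its level with DMSO thus changed more between the times than its level with R1881.

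**Figure D3:**
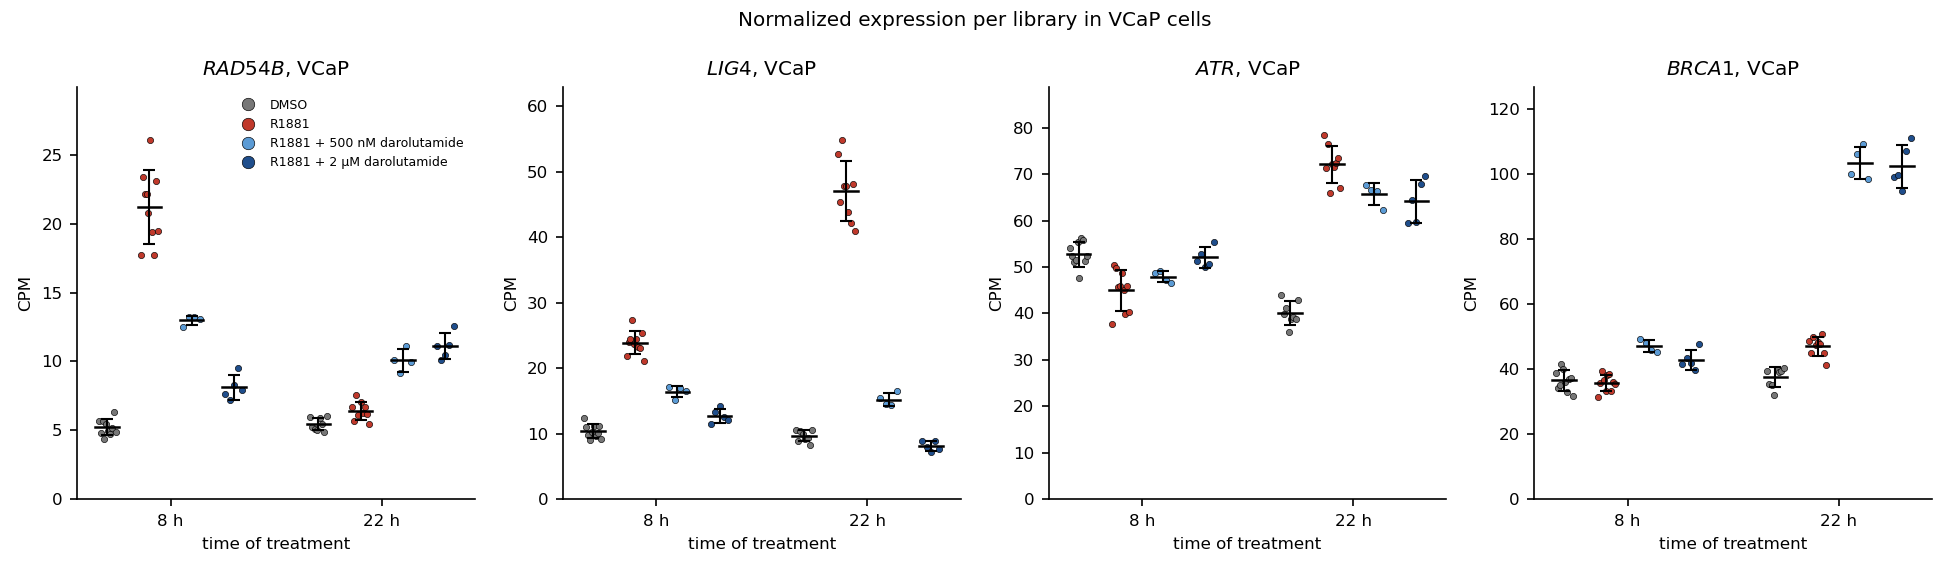
CPM of RAD54B, LIG4, ATR and BRCA1 in every VCaP library at 8 and 22 h (points), with means (long bars) and SD (error bars), by treatment. RAD54B with R1881 is at 17.7 to 26.1 CPM at 8 h and at 5.45 to 7.56 CPM at 22 h, while LIG4 with R1881 is higher at 22 h.

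In LAPC4 cells the repair genes moved little. After 22 h of R1881, 12 of 37 members rose and 0 fell, against 13.3% of all genes (6.83% higher), and their median log2 fold change was 0.11. The count was 16 with DMSO and R1881 numbers 1 to 5 alone and 2 with numbers from 6 upward alone (RAD54L and PARP1). Numbers from 6 upward left only DMSO libraries 6 and 7, so a loss of calls from fewer libraries cannot be told apart. The count was 21 when the slope of each library on GC content entered the fit. The 12 genes were RAD54L (0.38 ± 0.05 on the log2 scale), FANCA (0.30 ± 0.05), XRCC2 (0.30 ± 0.07), EXO1 (0.28 ± 0.05), PRKDC (0.23 ± 0.05), RAD54B (0.21 ± 0.07), BRCA1 (0.20 ± 0.06), MSH6 (0.18 ± 0.04), FANCI (0.18 ± 0.04), PARP1 (0.18 ± 0.02), CHEK1 (0.14 ± 0.05) and RAD51C (0.12 ± 0.04). The DMSO means of these genes, except MSH6 (115 CPM at 8 h and 122 at 22 h), were lower at 22 h than at 8 h. BRCA1 had 70.8 CPM with DMSO at 8 h and 52.8 at 22 h, FANCI 123 and 87, and RAD54L 15.6 and 11.4. The rise with R1881 is thus relative to DMSO cells whose levels had changed, and that change was not tested. LIG4, the gene with the largest rise in VCaP cells, had means of 5.45 ± 0.461 and 4.84 ± 0.626 CPM with DMSO and R1881 (SD, n = 7 and 10, log2 -0.17 ± 0.08, edgeR adjusted p = 0.205).

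Several members that moved in VCaP cells kept overlapping ranges in LAPC4 cells. BRCA1 had 46 to 58.2 CPM (median 51.9) with DMSO and 50.7 to 70.6 CPM (median 62.1) with R1881, and BRCA2 had 22.5 to 30.9 and 21.6 to 32.9 CPM. BARD1 had 114 to 132 CPM with DMSO and 112 to 136 CPM with R1881, so its ranges nearly coincided. ATM had 65.9 to 80.9 CPM with DMSO and 69.8 to 87.1 CPM with R1881, and ATR had 36.2 to 43.7 and 36.4 to 46.1 CPM. Of these 5 genes only BRCA1 was called.

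PARP1 and RAD54L were the 2 members for which all R1881 libraries lay above all DMSO libraries in LAPC4 cells, as was the case for 2.3% of all genes. PARP1 had 545 to 575 CPM (median 567) with DMSO, 626 to 661 CPM (median 637) with R1881, 577, 595, 593, 593 and 595 CPM with the low and 564, 581, 566, 590 and 557 CPM with the high dose. R1881 stood above all other libraries and the high dose overlapped with DMSO. RAD54L had 10.3 to 12.3 CPM with DMSO, 14.1 to 16.7 CPM with R1881, 12.3, 11.9, 13, 13.5 and 12.6 CPM with the low and 13, 13.9, 13.9, 12.9 and 12.1 CPM with the high dose. All darolutamide libraries lay below all R1881 libraries, and both doses overlapped with DMSO.

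Darolutamide lowered some of these genes in LAPC4 cells. Against R1881 at 22 h, 7 members were lower and 0 higher with the high dose, against 10.5% of all genes (5.47% lower). They were XRCC2 (-0.33 ± 0.08), EXO1 (-0.25 ± 0.05), FANCA (-0.22 ± 0.06), PRKDC (-0.17 ± 0.05), CHEK1 (-0.17 ± 0.05), PARP1 (-0.16 ± 0.02) and FANCI (-0.13 ± 0.04). With the low dose 4 were lower (XRCC2, RAD54L, EXO1 and PARP1) against 5.89% (3.21% lower). Control numbers 1 to 5 alone gave 14 and 10 calls, and numbers from 6 upward gave 3 and 1. Without high-dose replicate 1, and likewise without replicate 5, the high-dose count was 4, and without low-dose replicate 1 or 5 the low-dose count was 2. Between the high dose and DMSO, 0 members were called by edgeR and 0 by DESeq2, with 1 at an unadjusted p under 0.05, against 0.0165% of all genes, and between the doses 0 were called by edgeR and 0 by DESeq2, with 1 at an unadjusted p under 0.05, against 0.258%.

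At 8 h, R1881 called 0 members in LAPC4 cells with edgeR, 1 with DESeq2 and 5 at an unadjusted p under 0.05, against 2.64% of all genes. High-dose darolutamide against R1881 called 0 members with either tool (4 at an unadjusted p under 0.05), against 1.54%. The low dose against R1881, the doses against each other and the high dose against DMSO also gave 0 calls with edgeR and with DESeq2 (0, 0 and 2 members at an unadjusted p under 0.05), against 0.626%, 0.0275% and 0.011% of all genes. For 5 members the R1881 effect was larger at 22 h than at 8 h, against 3.21% of all genes (1.8% larger), and these were FANCA (0.36 ± 0.07), RAD54L (0.27 ± 0.07), EXO1 (0.25 ± 0.06), FANCI and PARP1 (0.14 ± 0.02). With DMSO these genes had lower mean CPM at 22 h than at 8 h. FANCA had 22 against 30.4, RAD54L 11.4 against 15.6, EXO1 41.2 against 56.6, FANCI 87 against 123 and PARP1 565 against 587. The larger effect includes this change with DMSO and does not by itself show that levels with R1881 grew.

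The R1881 effect at 22 h differed between the lines for 27 of 37 members, 7 upward and 20 downward in VCaP, against 68.5% of all genes. Of all genes 31.6% differed upward and 36.9% downward, with a median log2 difference of -0.05. The members' share of calls was near that of all genes. Control numbers 1 to 5 alone gave 21 calls and numbers from 6 upward gave 20. LIG4 differed most, by 2.40 ± 0.11 on the log2 scale (edgeR adjusted p = 1.33e-39), followed by BARD1 (-1.39 ± 0.07, 5.59e-34) and RAD51B (-1.34 ± 0.16, 1.11e-12). ATR was 0.76 ± 0.08 higher in VCaP, and PALB2 and ATM were 1.23 ± 0.10 and 0.93 ± 0.08 lower. For BRCA1 the R1881 effects were 0.32 and 0.20, a difference of 0.06 ± 0.08 in the joint fit that did not pass the test.

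**Figure D4:**
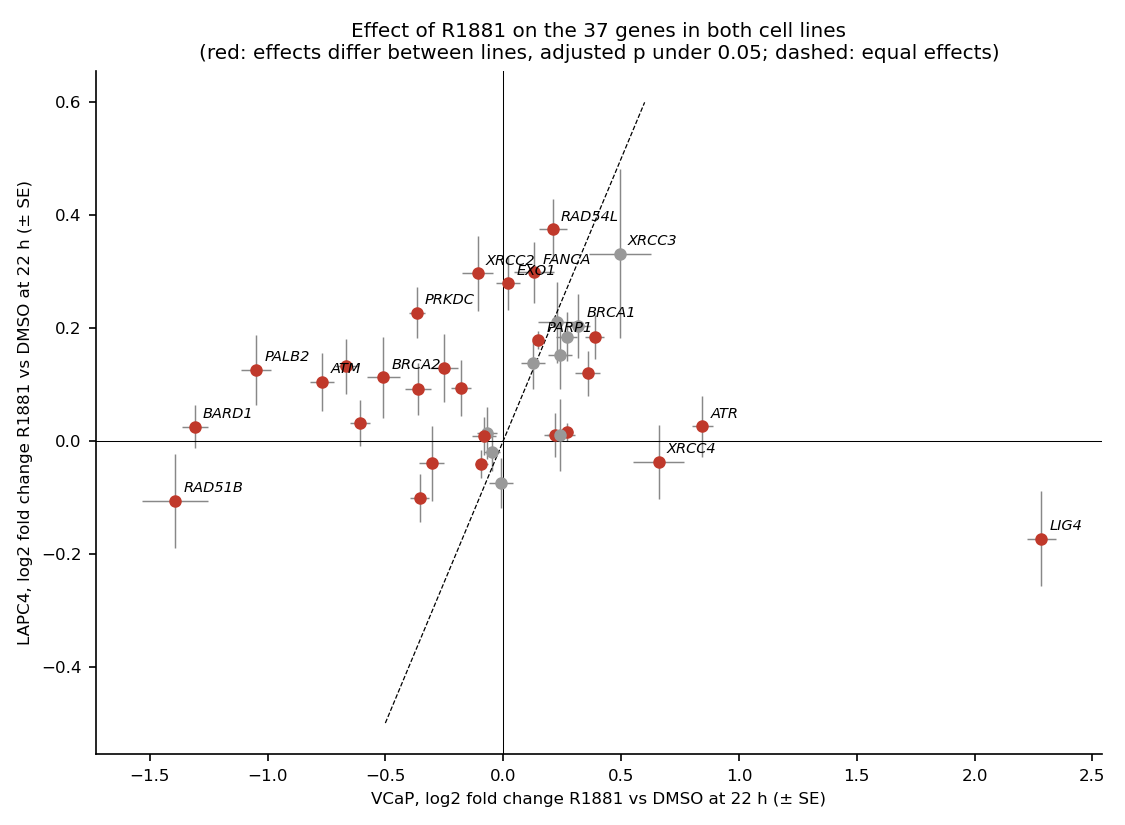
R1881 effect at 22 h as log2 fold change with SE in VCaP (x axis) and LAPC4 cells (y axis) for the 37 genes, red where the joint fit called the 2 effects different. LIG4 lies far right at 2.28 and near -0.17 in LAPC4, and BARD1, RAD51B and PALB2 lie left of -1 in VCaP.

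Other genes of the same pathways were taken from lists by function. Of 113 further repair genes in VCaP cells, 46 rose and 44 fell with R1881 at 22 h, against 37.4% and 40% of all genes. With the high dose against R1881, 65 rose and 20 fell, against 36.1% and 30.8% of all genes. The median log2 fold change of the 113 genes was then 0.32. Among 35 other homologous recombination genes 22 rose and 7 fell, among 13 other Fanconi anemia genes 10 rose and 1 fell, and among 16 other checkpoint genes 13 rose and 1 fell. FANCG of the Fanconi core complex rose by 1.13, and CLSPN, the adaptor of CHEK1, by 0.97 on the log2 scale. In nucleotide excision repair, 4 of 14 rose and 5 fell, and in base excision and single-strand break repair 8 of 19 rose and 4 fell. The share of calls in these 2 lists was near that of all genes (66.9%).

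Replication and mitosis genes moved beside these members. Of 35 DNA replication genes 35 were higher with the high dose than with R1881 (median log2 fold change 1.15), against 36.1% of all genes. Against DMSO 35 were higher (1.42), compared with 30.5% of all genes. In all 35 every high-dose library lay above every DMSO and R1881 library, against 6.28% of all genes. PCNA, the sliding clamp, had means of 132, 185, 398 and 414 CPM with DMSO, R1881, low and high dose, and CDC6, which loads the replicative helicase, 35.2, 82.7, 157 and 144 CPM. Of 20 mitosis genes 18 fell and 1 rose with R1881, against 40% and 37.4% of all genes. With the high dose against R1881, 20 rose, against 36.1% of all genes. TOP2A, the topoisomerase of chromosome segregation, had 753, 436, 824 and 875 CPM. In LAPC4 cells 28 of 35 replication genes rose with R1881 (median 0.22), against 6.83% of all genes. With the high dose 20 of 35 were lower, against 5.47% of all genes. The part of these cell cycle changes in the repair genes was not tested. Of 10 p53 target genes, 5 rose and 4 fell with R1881 in VCaP cells, against 37.4% and 40% of all genes. With the high dose against R1881, 4 rose and 4 fell, against 36.1% and 30.8% of all genes. Among them CDKN1A, the cyclin-dependent kinase inhibitor p21, rose by 2.03 with R1881 and fell by 1.71 with the high dose.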

How the data were processed

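RNA-seq was made from poly(A)-selected RNA in stranded, single-end libraries with reads of 50 bases. The authors demultiplexed with bcl2fastq 2.17, used STAR with GRCh38 for alignment and deposited whole-number read counts per gene from featureCounts, unnormalized. Strand setting, handling of multiply mapped reads and annotation release are not given in the sources used here, so overlapping and antisense genes and near-identical copies are uncertain. Groups followed the sample labels, and no 2 libraries were identical. The labels number the libraries of a group, and p-values measure the spread between them.

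Counts were fitted in edgeR 4.0.16 (R 4.3.3, quasi-likelihood test, TMM scaling), with all 8 groups of a line in 1 fit, genes kept at 10 reads or more in at least 4 libraries, and Benjamini-Hochberg adjustment over all genes tested. Both lines were fitted jointly for differences between them. Each SE was derived from the fitted change and its F statistic. On simulated counts with the VCaP means (19266 genes, R1881 against DMSO at 22 h), 90% of changes of 1 and 42% of changes of 0.3 on the log2 scale were recovered, and with the LAPC4 means (18204 genes) 95% and 51%. In each simulation 100 genes changed by 1 and 100 by 0.3. In the real comparisons 77.4% of all genes were called in VCaP and 13.3% in LAPC4 cells. Recovery at an adjusted p depends on that share, so these figures may not hold for the real data. Depth of 12188455 to 25201678 reads limits members with few reads most. Alternatives were DESeq2 1.42.0, other scalings, no filter, a GC slope per library, a replicate block, control subsets and leaving out libraries.

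The members, the gene lists and the tests were chosen with earlier results of these data known. Values are printed for the 4 members per line that rose most and the 4 that fell most after 22 h of R1881, for BRCA1, BRCA2, ATM, PARP1, PRKDC and CHEK1, for members that differed between doses, and for the 3 largest differences between lines and between times. Other members' values were chosen after they were seen.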

Additional observations from a re-analysis of the deposited data

Results flagged for a closer look

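In 132 checks of groups of 4 to 10 libraries for a library far from the others (Dixon's ratio), 9 values met the limit. The VCaP groups of ATM, PRKDC, LIG4, BARD1 and RAD51B were checked more than once, while each value was counted once. The rate among distinct groups is therefore somewhat above 9 in 132, and chance gives about 1 in 20. Replicate 3 of VCaP with R1881 at 22 h stood above its group for ATM (77.6 CPM), PRKDC (659 CPM) and NBN (77.1 CPM). PARP1 stood apart in VCaP DMSO replicate 6 (255 CPM), VCaP high-dose replicate 3 (305 CPM), LAPC4 DMSO replicate 1 (545 CPM) and LAPC4 low-dose replicate 1 (577 CPM), all at 22 h. FANCA was low in LAPC4 R1881 replicate 9 (23.7 CPM) and BRCA2 high in LAPC4 low-dose replicate 2 (30.4 CPM), both at 22 h.

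The R1881 effect at 22 h differed between VCaP and LAPC4 cells most for LIG4 (2.40 on the log2 scale), BARD1 (-1.39) and RAD51B (-1.34), each called by edgeR in the joint fit. Between 22 h and 8 h it differed in VCaP cells most for RAD54B (-1.79), RAD51B (-1.13) and LIG4 (1.08), and in LAPC4 cells most for FANCA (0.36), RAD54L (0.27) and EXO1 (0.25).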

How the results depend on the processing

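Of 360 counts of called members recomputed under an alternative, 325 stayed within 1.5 times the reported count. Of 6840 recomputed values of the members named by rule, 6372 were counted as unchanged. A called value then kept its direction and its call, and an uncalled value stayed uncalled and within its SE, whatever its sign. Of the rest, 144 lost their call, 128 gained one, and 193 moved by more than their SE without a call or lacked an adjusted p. Another 3 lost or changed their sign, all with scaling by total counts. These were RAD54L (0.00) and CHEK1 (-0.012) for R1881 in VCaP cells at 8 h, and RAD54L (-0.092) between the hormone-starved lines. Of 704 called values of all members under 2 other scalings, 6 lost or changed their sign. Causes of these shifts were not tested.

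The deviations of same-numbered libraries had a mean r of -0.00511 in VCaP (33 of 149 pairs above 0.1) and 0.0549 in LAPC4 cells (57 of 161), against 0.000668 and -0.00717 for other numbers. After the GC slope, 0 and 1 pairs were above 0.1. Not every pair passed 0.1 and no label ties the numbers, so the numbers were not taken to pair the samples. With the replicate block, low dose against R1881 in VCaP at 8 h gave 9 calls and high against low dose 5, and in LAPC4 at 22 h high dose against R1881 gave 17 and low dose 9. With the replicate block and a GC slope, high against low dose in VCaP at 8 h gave 14 calls. In LAPC4 at 22 h that fit gave 22 for R1881, 22 for the high dose and 15 for the low dose against R1881, and 1 for the high dose against DMSO. At 8 h it gave 3 for R1881, 2 for the high dose against R1881 and 2 against DMSO, and 15 for the difference between times.

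With the GC slope alone, high against low dose in VCaP at 22 h gave 11 calls. In LAPC4 it gave 21 for R1881, 16 for the high and 10 for the low dose against R1881 at 22 h, 1 for R1881 at 8 h and 17 for the difference between times. Controls numbered 1 to 5 gave, in LAPC4, 14 for the high and 10 for the low dose at 22 h, and 1 for R1881 and 1 for the high dose against R1881 at 8 h. Controls from 6 upward gave 2 for R1881, 3 for the high and 1 for the low dose at 22 h, and 1 for the difference between times. Without the filter the low dose gave 1 and the difference between times 2. For R1881 in LAPC4 at 8 h DESeq2 gave 1 and total counts 1.

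Leaving out 1 darolutamide library gave 37 to 37 calls for the high dose against R1881 in VCaP at 22 h, 4 to 10 for it in LAPC4, and 2 to 3 for the low dose in LAPC4. Without replicate 3 of R1881 in VCaP at 22 h, chosen after seeing the data, R1881 against DMSO gave 30 calls and the high dose 36. Depth limits RAD51B most, with XRCC4 next in VCaP and RAD54B and LIG4 in LAPC4 cells. In LAPC4 cells counts differed with the controls used, which also differed in number. Small changes were partly missed in the simulated counts of either line.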
